A study of Drosophila melanogaster with 2 samples.

Results

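Mitosis is the stage of the cell cycle in which duplicated chromosomes are condensed, attached to a spindle and drawn apart. It is started by the kinase Cdk1 and ended by the anaphase-promoting complex (APC/C), a ubiquitin ligase that marks securin and the cyclins for destruction. Most cells of the adult hindgut epithelium are differentiated and polyploid, having copied their DNA without dividing, so the mitosis genes mark a process that few of these cells carry out. The 9 genes described are Cdk1, aurB, borr, barr, Top2, Klp61F, Bub1, fzy and pim. They were taken by symbol from the full comparison table of 23932 features. By rule, only genes in the stretches of arm 2L up to position 22247875 and of arm 3L up to position 5149852 were kept. In these stretches gene names fit the counts.

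The values come from RNA sequencing of Drosophila melanogaster hindguts at 2 ages of adult life. All animals carried byn-Gal4, a driver named for the hindgut transcription factor gene brachyenteron, and were reared at 25 °C. Young hindguts were dissected as the adults emerged, and mature hindguts after 4 days at 18 °C, so age and temperature changed together and cannot be told apart. Each condition held 100 to 150 guts and 3 replicates, the cells being labelled as adult ileal. The 6 libraries stand behind every value, but values per library and depths per library were not analysed here, so the spread within an age is seen only through the standard error of each fold change. In whole organs, fewer cells of a type and less RNA per cell cannot be told apart.

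All fold changes are log2 values for young against mature, so that a negative value is higher in mature guts, and the mean is that of normalized counts over the libraries. An adjusted p is that of the DESeq2 Wald test with Benjamini-Hochberg adjustment over the 10458 features that have one, and a gene is called at an adjusted p under 0.05. Each 95% interval is the estimate with the matching normal multiple of its standard error on either side. Of the 9 genes, 8 had a negative log2 fold change, and the median of the 9 was -0.82. The median was -0.0070 over the 2604 tested features of the 2 stretches. It was -0.066 over the 1397 of these whose means lay within the range of the 9 genes. Negative values made up 50.5% of the 2604 and 55.1% of the 1397, and the difference from these shares was not tested. The tests fell into distinct outcomes: barr, Top2 and borr were called higher in mature guts, Cdk1, Klp61F and Bub1 were not called, and aurB, fzy and pim had a fold change without a p. None was called higher in young guts. As background, 19.7% of tested features in the stretches were called higher in mature and 20.7% higher in young, and over the whole of the authors' deposited table the shares were 15.4% and 16.3%. The 3 called genes are 3 of 6 tested, and whether that exceeds the background was not tested.

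**Figure D1:**
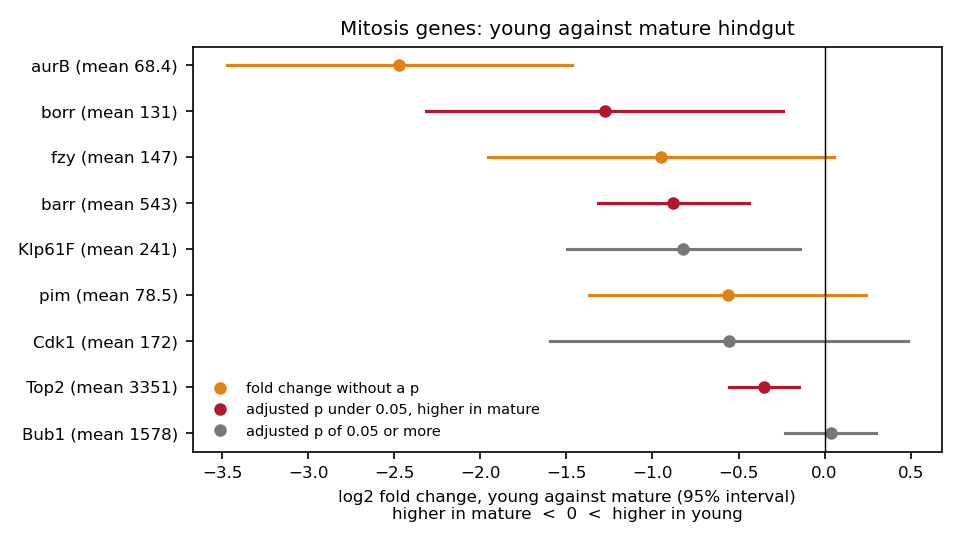
Log2 fold change of young against mature hindguts for the 9 mitosis genes, 1 per row with its mean normalized count, ordered by fold change; points are the deposited estimates, lines their 95% intervals and colours the outcome of the test. The estimates of 8 genes lie on the mature side of 0, and the interval of Bub1 is centred near 0.

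Cdk1 encodes the kinase that drives entry into mitosis. On 2L, 10384739 to 10386262 on the minus strand, Cdk1 (FBgn0004106) had a mean of 172 and a log2 fold change of -0.56 ± 0.53 (SE; adjusted p = 0.488) per the authors' deposited table. Its interval ran from a level 3.02-fold higher in mature guts to one 1.40-fold higher in young guts, so the direction of the difference was not resolved. Among the 215 other features of the stretches with means within 1.5-fold of that of Cdk1, 99.5% had a smaller standard error, the median being 0.29.

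The chromosomal passenger complex corrects the attachment of chromosomes to the spindle and takes part in cytokinesis. Its kinase gene aurB (FBgn0024227; 2L, 10856797 to 10858094, minus strand) had the largest fold change of the 9 genes, with log2 -2.47 and a standard error of 0.51 at a mean of 68.4 per the authors' deposited table. That is 5.55-fold higher in mature guts, with an interval from 2.77-fold to 11.1-fold, but the table gives no p for it. It was the only one of the 9 genes in the authors' lists of 132 features for young and 91 for mature, where it stands under mature. The smallest absolute log2 fold change was 1.96 in the first list and 1.97 in the second, which no other gene of the 9 reached. borr (FBgn0032105; 2L, 9251472 to 9253118, minus strand), which encodes Borealin, the subunit that helps bring the complex to the centromere, had a mean of 131 and was 2.42-fold higher in mature guts per the authors' deposited table (log2 -1.28 ± 0.53 SE, adjusted p = 0.0499). The borr call sat at the threshold and was lost with no low-mean filter (adjusted p = 0.0713). Both genes of the complex thus had estimates on the mature side at low means and with standard errors above 0.50.

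Condensin and topoisomerase II shape the mitotic chromosome, the first by compacting it and the second by untangling DNA. The gene of the condensin I subunit Barren, barr (FBgn0014127; 2L, 20058163 to 20061370, minus strand), had a mean of 543 and was 1.84-fold higher in mature guts, with an interval from 1.36-fold to 2.49-fold (log2 -0.88 ± 0.22 SE, adjusted p = 0.00052 per the authors' deposited table). Split by the estimated fold change over equal numbers of libraries, that mean corresponds to 703 normalized counts in mature and 383 in young guts. Top2 (FBgn0284220; 2L, 19447365 to 19453490, minus strand) was the most abundant of the 9 genes at a mean of 3351, and 1.27-fold higher in mature guts, with an interval from 1.11-fold to 1.47-fold (log2 -0.35 ± 0.10 SE, adjusted p = 0.00348 per the authors' deposited table). The same split gave 3756 normalized counts in mature and 2947 in young guts. Topoisomerase II also acts outside mitosis, in replication and chromatin organisation, so the level of Top2 is not that of mitosis alone. The barr and Top2 calls stood under each alternative that was tried.

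Klp61F (FBgn0004378; 3L, 1241568 to 1245910, minus strand) encodes kinesin-5, the motor that pushes spindle poles apart. It had a mean of 241 and a log2 fold change of -0.82 ± 0.35 (SE; adjusted p = 0.0548) per the authors' deposited table, just short of the threshold. With the adjustment run over the 2 stretches alone, the adjusted p was 0.0433, and with no low-mean filter it was 0.0783. Klp61F shares 458 bases with galene on the opposite strand. That gene had a mean of 1133 and a log2 fold change of 0.78, the opposite direction, per the authors' deposited table. Whether counting used strand is not given in the sources used here, and the shared reads may have been mixed.

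Bub1 (FBgn0031696; 2L, 5278865 to 5283283, plus strand) encodes a kinase of the spindle checkpoint, which holds cells before anaphase until all chromosomes are attached. It was the exception in direction, with a mean of 1578 and a log2 fold change of 0.04 ± 0.13 (SE; adjusted p = 0.889) per the authors' deposited table. Its interval ran from 1.17-fold higher in mature to 1.23-fold higher in young guts, the narrowest of the 9 after that of Top2. Whether Bub1 differs in its response from the other 8 genes was not tested.

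Exit from mitosis was represented by fzy and pim. The fzy gene (FBgn0001086; 2L, 16310956 to 16313097, plus strand) encodes the Cdc20 protein that activates the APC/C. It had a mean of 147 and a log2 fold change of -0.95 ± 0.51 (SE; no p) per the authors' deposited table. Only 62 of its bases overlap cact on the opposite strand, but the mean of cact was 11704, with a log2 fold change of 0.40, per the authors' deposited table. The pim gene (FBgn0003087; 2L, 10362989 to 10364092, plus strand) encodes securin, the APC/C target that holds back the cleavage of cohesin. It had a mean of 78.5 and a log2 fold change of -0.56 ± 0.41 (SE; no p) per the authors' deposited table. The intervals of both included 0, reaching 1.04-fold higher in young guts for fzy and 1.18-fold for pim.

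Levels were compared between genes per length, as mean normalized counts per kilobase of annotated exon. Top2 stood highest at 639 per kilobase, followed by Bub1 at 369, barr at 187 and Cdk1 at 159. The remaining 5 genes lay between 57.8 (aurB) and 101 (borr) per kilobase. Of the 2772 protein-coding genes with a mean above 0 in the stretches, 66.1% had a lower value per kilobase than Top2, 55.9% than Bub1 and 35.5% than aurB. All 9 were therefore detected, 7 of them below the middle of that order.

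A fold change without a p was rare among other features. DESeq2 leaves out the p of a gene with a fold change when it takes the count of a library as extreme, though the table does not record why a p is missing. In the stretches, 22 of 3628 features with a fold change had no p, or 0.606%. Within the range of means of the 9 genes the share was 1.34%, or 19 of 1416. Among the 9 genes it was 3 of 9, namely aurB, fzy and pim. Of the 22, 17 had a negative log2 fold change, against 50.0% of all 3628 features, a difference that was not tested. Counts per library, which would show the reason, were not analysed here.

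The estimates were also imprecise for their abundance. Each of the 9 genes had a larger standard error than the median of features with means within 1.5-fold of its own. The share of such features with a smaller standard error was 98.0% for borr, 96.5% for aurB, 92.6% for fzy, 87.1% for Klp61F and 82.2% for barr. It was 69.3% for pim, 68.5% for Bub1 and 52.5% for Top2. In the stretches, 51 of 1891 features with a mean of at least 100 had a standard error of at least 0.45, or 2.70%. These limits were chosen after the values were seen. The 51 held 3 of the 7 mitosis genes of that abundance (borr, fzy and Cdk1) and 4 of 23 other mitosis machinery genes (twe, pav, glu and Grip71). All 7 of these genes had negative log2 fold changes, as had 25 of the other 44 features.

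**Figure D2:**
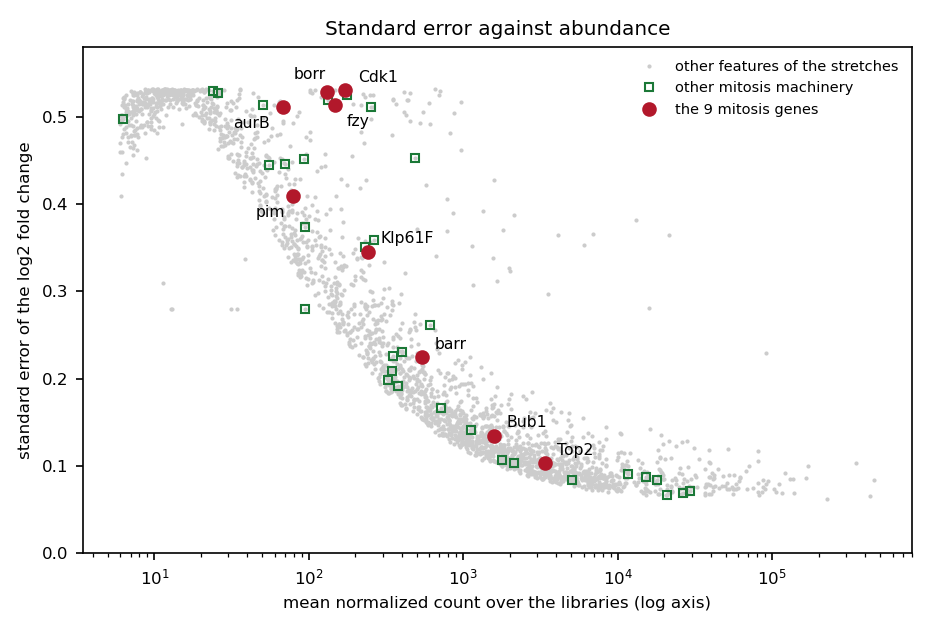
Standard error of the log2 fold change (vertical axis) against mean normalized count (horizontal log axis) for features of the 2 stretches with a mean of at least 6; filled circles are the 9 mitosis genes, open squares other mitosis machinery genes. borr, Cdk1 and fzy lie far above the band in which most features of like abundance fall, while Top2 and Bub1 lie within it.

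Other genes of the mitotic machinery were taken from 10 lists by role. Of 144 symbols listed, 43 lay in the stretches, 34 of them outside the 9 genes; 2 of the 34 were listed at 0 and 31 were tested. Of the 31, 9 were called higher in mature guts, 1 was called higher in young guts and 21 were not called. The background in the stretches was 19.7% higher in mature and 20.7% higher in young, and the difference from it was not tested for these genes. The median log2 fold change of the 32 genes with a value was -0.39, and 24 were negative. Of all features with a fold change in the stretches, 50.0% were negative. Among tested features within the range of means of the 9 genes the share was 55.1%. The negative values belonged mostly to genes of low abundance: 20 of 22 genes with a mean under 1000 were negative, with a median of -0.77, against 4 of 10 with a mean of at least 1000, with a median of 0.04. The limit of 1000 was set after the values were seen, and the difference was not tested. Of the 32 genes, 19 overlap another gene with counts, and among the 13 that do not, 2 were called higher in mature (cana and gammaTub23C) and none in young, a share toward mature no larger than the background of 19.7%.

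In the spindle and centrosome list, 4 of 8 tested genes were called higher in mature guts, against the same background of 19.7%, a difference that was not tested. Of the 4, dgt2, Grip75 and msd1 overlap another gene and gammaTub23C does not. The gamma-tubulin gene gammaTub23C, whose product nucleates microtubules, had a mean of 610 and was 1.90-fold higher in mature guts per the authors' deposited table (log2 -0.92 ± 0.26 SE, adjusted p = 0.00201). Its partner in the gamma-tubulin complex, Grip75, had a log2 fold change of -0.79 ± 0.20 (SE; adjusted p = 0.000424) per the authors' deposited table. The augmin complex, which branches new microtubules from old ones in the spindle, was represented by 4 genes. Its gene dgt2 was 1.87-fold higher in mature guts (log2 -0.90, adjusted p = 9.63e-05) and msd1 had a log2 fold change of -1.31 (adjusted p = 0.0418) at a mean of 25.7 per the authors' deposited table. The other two, msd5 and wac, were not called, at log2 -0.29 and 0.01, nor was the gamma-tubulin complex gene Grip71, at -0.54 ± 0.51 (SE). dgt2 overlaps escl (mean 432), Grip75 overlaps Cog4 (1947) and msd1 overlaps msd5 (24.0) per the authors' deposited table. Of those not called, wac, at a mean of 94.8, overlaps the far more abundant Tudor-SN (mean 17275, log2 0.23). Grip71 overlaps Irk3 (mean 453, log2 -0.02), whose standard error of 0.50 was also high.

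The remaining calls toward mature guts came from chromosome, kinetochore and motor genes and from twe. Spindly, which brings the motor dynein to kinetochores, had a mean of 231 and a log2 fold change of -1.02 (adjusted p = 0.014), and the condensin II gene Cap-D3 one of -0.60 (adjusted p = 0.00732) per the authors' deposited table. glu, the SMC4 subunit common to both condensins, had log2 -0.83 with a standard error of 0.45 and was not called (adjusted p = 0.158 per the authors' deposited table). Among motors, the neighbouring CENP-E homologues cmet and cana were both called higher in mature guts. The first had log2 -1.45 (adjusted p = 0.00599) at a mean of 92.7, and cana had log2 -0.27 (adjusted p = 0.00563) at a mean of 5046, per the authors' deposited table. pav, the kinesin of the central spindle, had log2 -0.94 and a standard error of 0.52 and was not called (adjusted p = 0.165 per the authors' deposited table). twe, the Cdc25 phosphatase of meiosis, had a mean of 176 and was 2.78-fold higher in mature guts (log2 -1.48 ± 0.53 SE, adjusted p = 0.0185 per the authors' deposited table). It overlaps the more abundant EndoGI, which had a mean of 7011 and a log2 fold change of -0.68. Spindly overlaps CG8852 (mean 1046, log2 1.32). Cap-D3 overlaps Coq6 (mean 3348, log2 0.24), Cox11 (mean 972, log2 0.78) and CG31915 (mean 333, log2 0.01), among others. glu overlaps Nubp1 (mean 1344, log2 0.08) and cmet overlaps ab (mean 57.5, log2 0.04), while cana and pav overlap no other gene with counts.

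The single call toward young guts was the chromokinesin gene neb, also known as Klp38B, at a mean of 1122 and 2.73-fold higher (log2 1.45 ± 0.14 SE, adjusted p = 3.54e-23 per the authors' deposited table). neb overlaps the far more abundant fok on the opposite strand, which had a mean of 21573 and a log2 fold change of 1.63, so the neb value cannot be told apart from that of fok here. Abundant genes with roles beyond mitosis had small estimates and were not called. The PP2A phosphatase genes mts and Pp2A-29B had log2 fold changes of 0.08 and 0.13, the dynein heavy chain gene Dhc64C 0.00, the kinesin gene Klp31E 0.09, the formin gene dia -0.09 and the profilin gene chic -0.03 per the authors' deposited table. The APC/C subunit genes Cdc23 and ida, at log2 -0.37 and -0.39, were not called either. Nor were the cohesin gene SA1, at -0.11, and the kinetochore genes Nuf2 (-1.01) and Nnf1b (0.21). Cdc23 overlaps CG2493 (mean 2637), Nuf2 overlaps Sem1 (mean 1763) and SA1 overlaps CG13775 (mean 90.5). The gene cort, a female meiotic relative of fzy, had log2 -0.84 with no p.

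**Figure D3:**
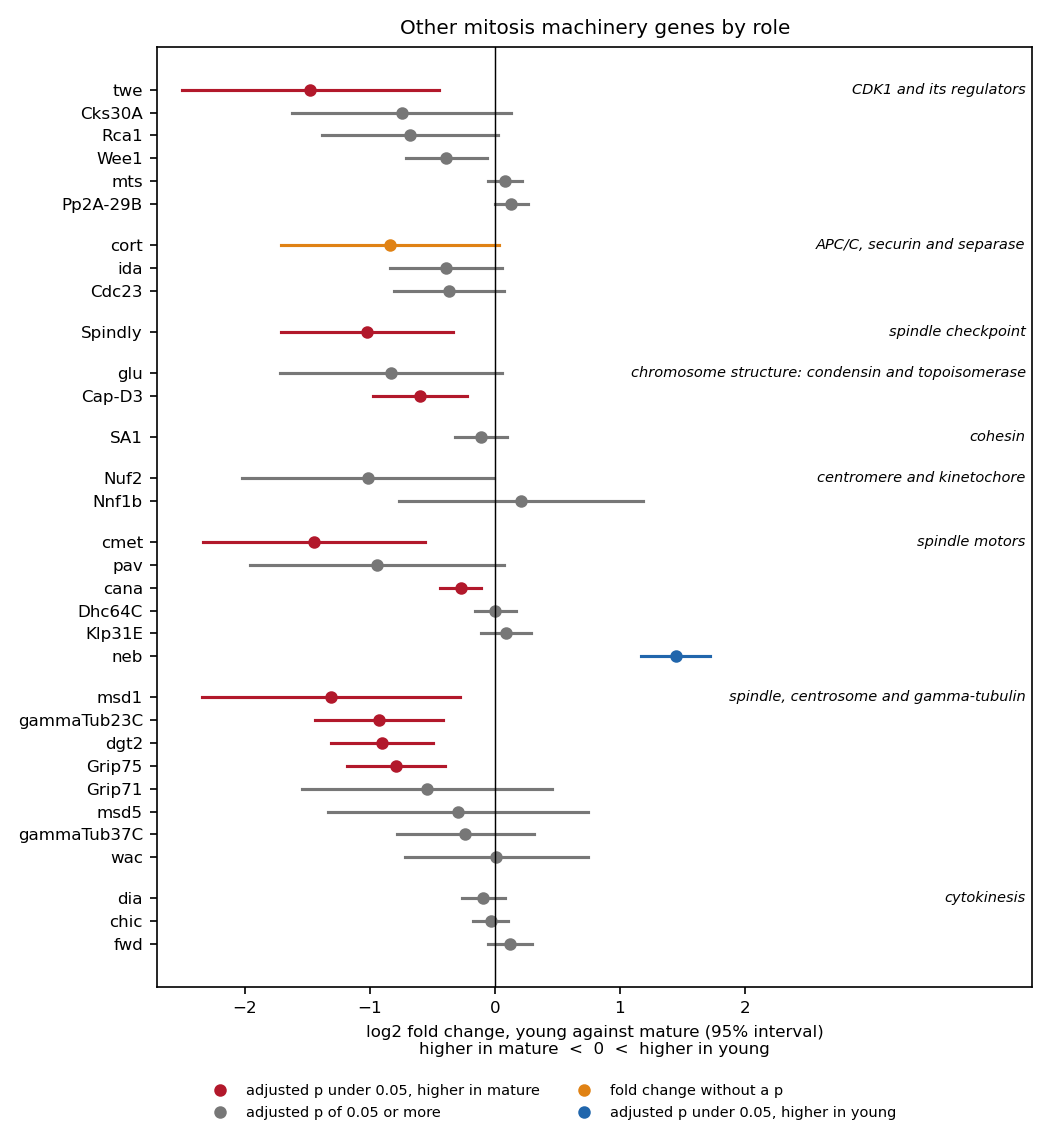
Log2 fold change of young against mature hindguts for the 32 other mitosis machinery genes with a value, grouped by role; points are the deposited estimates, lines their 95% intervals and colours the outcome of the test. The 9 genes called higher in mature guts are spread over 5 of the roles, and neb is the only gene called higher in young guts.

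Centring moved the counts. The 19 cytoplasmic ribosomal protein genes of the stretches had a median log2 fold change of 0.17, and subtracting it from every feature makes all values more negative. After that shift Klp61F was also called higher in mature guts (log2 -0.99, adjusted p = 0.0138), giving 4 of 6 tested genes, and 16 rather than 9 of the 31 other machinery genes were called higher in mature. The genes gained were Wee1, Rca1, Cdc23, ida, SA1, dia and chic, while neb was still called higher in young. The background rose as well, to 31.0% of tested features in the stretches. Bub1 turned to -0.14 and was still not called (adjusted p = 0.476).

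Markers of tissues that could lie in or beside the dissected hindgut were read from lists by cell type. All 6 hindgut genes of the stretches were detected, among them the homeobox gene cad at a mean of 4806 and the zinc finger gene drm at 13433 per the authors' deposited table. For germline and testis, 7 of 9 markers had a value and all 7 were negative, with a median log2 fold change of -0.84. In the stretches, 50.0% of features with a fold change were negative, and the difference from that share was not tested. The means of these 7 ran from 0.671 to 176, and the sperm protein gene ProtA and the meiotic cohesion gene solo were listed at 0. Besides twe, none was called: the germline genes vas and aub had log2 fold changes of -0.99 (adjusted p = 0.114) and -1.01 (adjusted p = 0.122), and piwi -0.47 (adjusted p = 0.494), per the authors' deposited table. This list holds twe, cort and gammaTub37C, which the machinery lists also hold. Of the markers with a value, only gammaTub37C and the sperm protein gene ProtB overlap no other gene with counts. vas overlaps vig (mean 14936, log2 0.81) and piwi overlaps SCAR (mean 5078, log2 -0.09). aub overlaps TTLL4A (mean 1138, log2 -0.83), cort overlaps CG34310 (mean 785, log2 1.22) and twe overlaps EndoGI. For the midgut, 3 digestive protease genes were negative: Jon25Bi (log2 -1.58, adjusted p = 0.0115), Jon25Bii (-0.23, adjusted p = 0.599) and Jon25Biii (-0.46, no p) per the authors' deposited table. The single gut progenitor marker of the stretches, the Notch pathway gene Su(H), which many cells express, was 2.48-fold higher in mature guts (log2 -1.31, adjusted p = 1.50e-07 per the authors' deposited table). The hemocyte genes NimC1 (mean 26.6), Sr-CI (35.7) and Pxn (3049) were higher in young guts, at log2 1.54, 1.43 and 0.32. In mature guts crq (mean 8852) was higher, at -0.57 per the authors' deposited table. The hemocyte gene He, at a mean of 4.40, had log2 0.52 and no adjusted p. The muscle genes Mhc and sls were higher in young guts at log2 0.90 and 0.63, and Msp300 was higher in mature at -0.21, per the authors' deposited table. The neuronal genes went opposite ways: nSyb (mean 158) was higher in mature guts, with log2 -1.91, and Syt1, at a mean of 43.3, had log2 0.98 and was not called (adjusted p = 0.0739), per the authors' deposited table. The fat body gene Fbp2, at a mean of 83.8, was higher in young guts (log2 1.34). The part of any of these tissues in the values of the mitosis genes was not tested.

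**Figure D4:**
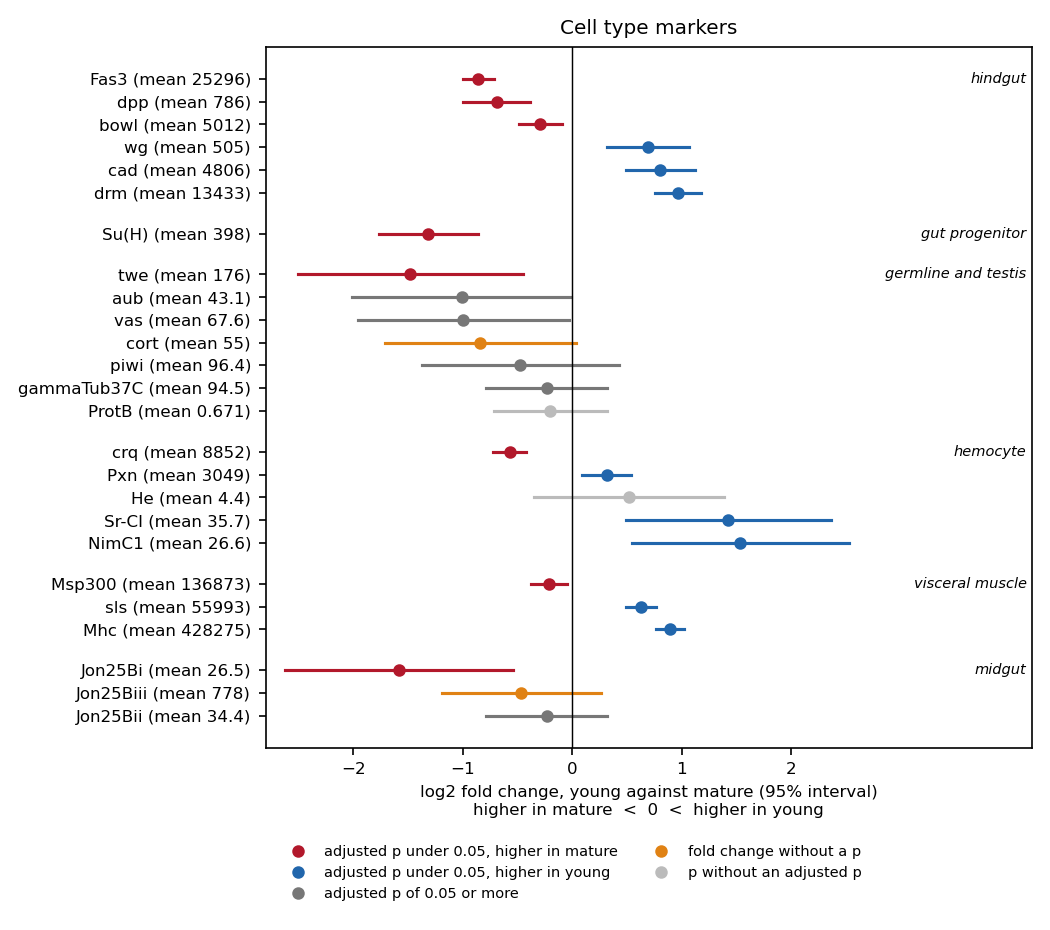
Log2 fold change of young against mature hindguts for marker genes of 6 tissues or cell types, with each gene's mean normalized count; points are the deposited estimates, lines their 95% intervals and colours the outcome of the test. The estimates of the germline and midgut markers lie on the mature side of 0, but several intervals include 0 and only twe and Jon25Bi are called. The hindgut markers divide into 3 on each side.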

How the data were processed

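Hindgut total RNA was prepared with Trizol and paired reads came from a NovaSeq, per the labels' protocols. The submitters' processing notes name Trim Galore, HISAT2, DESeq2 and the build BDGP6, with no versions; how reads were counted, on which strand and with which annotation is not given in the sources used here. Nothing says how the replicates were formed, so the p-values reflect the spread of these libraries only, and that spread may be technical.

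The authors' deposited table gives, per feature, a mean of normalized counts over the libraries (a signal that is never negative), a log2 fold change with its standard error, a Wald score and a Wald test p-value with its adjusted p-value. The log2 base is that of DESeq2, and the authors' Wald score is their fold change over its standard error. Standard errors had a ceiling of 0.53, and were small even at almost no counts: LysS, at a mean of 0.168, had log2 -0.05 ± 0.26 (SE). Whether the estimates were shrunken was not tested. The fold changes and intervals of borr, Cdk1, fzy and aurB, whose standard errors lay near the ceiling, therefore hold only as deposited. Features with a mean under 6.11 had no adjusted p. The means summed to 2.94e+07 normalized counts. A planned edgeR fit needs counts per library, so the authors' DESeq2 values stand as the test.

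Positions and symbols are those of Ensembl release 115 on BDGP6, which held 23851 of the 23932 identifiers; coordinates are 1-based. Names were checked by ribosomal protein genes: the nearest such genes on either side of the 8 genes on 2L had means of at least 30889, and RpL23A, to the right of Klp61F, one of 115093. Outside the 2 stretches, names did not match expected abundances and no gene is reported. Exon length is the union of annotated exons. Named genes are the 9, every called machinery gene and the 2 most abundant others per list; pav, msd5, cort, Wee1, Rca1, overlapping genes and the marker genes were added with values in view. The symbols SA, Klp38B, Mst35Ba and Mst35Bb were matched through RefSeq synonyms. The genes and lists were chosen with earlier results of these data known. The alternatives run are given in the closing section; Benjamini-Hochberg adjustment and the recomputed Wald test were tested on simulated data. The tools were matplotlib 3.10.9, scipy 1.17.1, numpy 2.4.6 and pandas 2.3.3 under Python 3.11.15.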

Additional observations from a re-analysis of the deposited data

How the results depend on the processing

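No paired analysis was possible because the table has 1 value per feature over both ages, and for the same reason leave-one-out fits could not be run. The alternatives were a stricter adjusted p (0.01), dropping the low-mean filter, a mean of at least 100, recentring on the ribosomal protein genes, adjustment over the stretches alone, protein-coding features only and, chosen after seeing the data, a normal p from the Wald score where the p is missing and leaving out genes that overlap another. Among the 9 genes, 2 to 4 were called higher in mature and none in young under these alternatives. Of the 9, 6 were tested (5 without overlapping genes, 9 with the Wald score p). In the stretches, 397 of 2604 features were called higher in mature at the stricter adjusted p and 482 of 3606 without the low-mean filter. The number was 490 of 1877 with a mean of at least 100 and 808 of 2604 after recentring. It was 537 of 2604 over the stretches alone, 486 of 2273 with protein-coding features only and 514 of 2626 with the Wald score p. Those higher in young ran from 412 to 556. borr lost its call at the stricter adjusted p, without the low-mean filter and, at an adjusted p of 0.05004, with the Wald score p added. Klp61F gained one with a mean of at least 100, after recentring, over the stretches alone (adjusted p = 0.0433) and with protein-coding features only. With the Wald score p, aurB had an adjusted p of 1.05e-05, fzy of 0.156 and pim of 0.330. That alternative fills in a p where DESeq2 gave none, possibly because the count of a library was extreme. These values, that of aurB included, therefore carry no weight as calls. Recentring turned Bub1 to a log2 fold change of -0.14 and took the other machinery genes called higher in mature from 9 to 16; without overlapping genes, 2 were called higher in mature and 0 in young. The cause of these moves was not tested beyond what the construction of each alternative gives. Depth per library was not analysed here, and its part in the width of the intervals was not tested.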

Other observations

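The features of the stretches without a p also held the 4 lysozyme genes LysB, LysC, LysD and LysE, at means of 175, 81.7, 501 and 75.0 and log2 fold changes of -0.48, -0.32, -0.36 and -0.44 per the authors' deposited table. Lysozymes of this cluster are digestive enzymes of the midgut, and these genes were named after their values were seen. Another lysozyme gene, LysX, was not among the features without a p and went the other way. It had log2 0.29 ± 0.27 (SE) at a mean of 261. The gamma-tubulin gene gammaTub37C, which is used in the female germline and early embryo, had log2 -0.23 with a standard error of 0.28 at a mean of 94.5, smaller than that of 98.0% of features of like abundance. The midgut protease gene Jon25Bii had the same rounded log2 fold change and standard error at a mean of 34.4 per the authors' deposited table. Among the 51 features of high standard error were also the replication genes CycE (log2 -0.43, standard error 0.52) and Mcm10 (-0.40, 0.53) per the authors' deposited table.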
